A study of Mus musculus with 11 samples.

Results

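The 10 genes Hspa1a, Hspa1b, Trib3, Ddit3, Atf3, Atf4, Herpud1, Xbp1, Dnajb9 and Hspa5 belong to the heat shock response and the unfolded protein response, and their transcripts were followed across 11 arrays of alloreactive T cells. They were taken by gene symbol out of 12393 measured genes, and all 20 probe sets annotated with one of these symbols alone were read, out of 20380 probe sets with a single symbol. The genes were chosen from earlier results of these same log2 values, in which a wider set of unfolded protein response genes was low in liver cultures and Trib3 and Ddit3 peaked on the MLN and PLN arrays numbered 2. Both patterns are therefore given here as descriptions, without a test.

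The arrays hold RNA of B10.BR T cells that had been stimulated for 4 days with dendritic cells of C57BL/6 mice, which differ from B10.BR mice in their major histocompatibility genes. The dendritic cells came from liver (arrays numbered 2, 3 and 4), MLN (2, 3 and 4), PLN (2, 3 and 4) or spleen (3 and 4). MLN and PLN customarily stand for mesenteric and peripheral lymph node, which the labels do not spell out. All groups thus share the T cell strain, the dendritic cell strain and the culture time, and T cells without dendritic cells were not analysed here. How the T cells were parted from the dendritic cells before RNA extraction is not given in the sources used here, nor is it stated that the arrays of an organ were separate cultures or mice. The p-values below therefore measure the spread between arrays, which may be technical. In bulk RNA, fewer cells of a type and less RNA per cell cannot be told apart.

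Cells meet unfolded protein with several programmes that these genes report on. In the cytosol, the factor Hsf1 switches on the inducible chaperones Hspa1a and Hspa1b, which bind exposed stretches of misfolded protein. In the integrated stress response, kinases that sense endoplasmic reticulum stress or missing amino acids slow translation, which favours synthesis of the transcription factor Atf4; Atf4 induces Ddit3, Trib3, Atf3 and enzymes of amino acid supply. In the endoplasmic reticulum, the sensors Ern1 and Atf6 act through Xbp1 splicing and Atf6 cleavage to raise chaperones such as Hspa5 and Dnajb9 and degradation factors such as Herpud1. T cells enlarge this secretory machinery when they are activated.

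Promoter sequences are shown for members whose levels moved together or which carry a response element named for their pathway. They are RefSeq sequences of mouse build GRCm38.p6, where windows for all 10 members were matched, each holding 250 bases before the annotated start and 50 after it. Hspa1a and Hspa1b lie next to each other on the minus strand of chromosome 17. Their windows differed at 4 of 300 bases, 3 of them before the start. The 250 bases before the start follow, 5′ to 3′ on the gene's strand, at chr17:34972157-34972406 for Hspa1a and chr17:34959239-34959488 for Hspa1b, with capitals on a paired heat shock unit, GAANNTTC.
Hspa1a: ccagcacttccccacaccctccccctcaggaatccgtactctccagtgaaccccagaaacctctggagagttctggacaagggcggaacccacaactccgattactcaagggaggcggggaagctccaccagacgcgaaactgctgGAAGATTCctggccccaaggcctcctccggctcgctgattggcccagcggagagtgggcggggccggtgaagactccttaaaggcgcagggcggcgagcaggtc
Hspa1b: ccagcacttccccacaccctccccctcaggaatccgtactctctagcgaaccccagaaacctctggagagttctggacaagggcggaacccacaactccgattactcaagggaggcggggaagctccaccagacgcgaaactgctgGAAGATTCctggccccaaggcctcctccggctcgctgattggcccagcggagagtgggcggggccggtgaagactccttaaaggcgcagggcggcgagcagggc

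The unit pair GAANNTTC, which reads the same on both strands, occurred in these windows alone among the members and in 7.86% of all 32851 promoter windows. It was searched after the longer heat shock element, this pair followed by any 2 bases and GAA, had been found on neither strand in any member and in 0.603% of windows. In a list of cytosolic and mitochondrial heat shock genes, 5 of 18 matched genes held the longer element and 9 of 18 the pair. Only exact matches within the windows were searched, so an imperfect or more distant heat shock element would be missed.

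Trib3 is shown because a core of the amino acid response element, TGATGNAA or TTNCATCA on the other strand, lies just inside its transcript, at bases 15 to 22. This core was present in 3 members (Atf3, Herpud1 and Trib3) and in 3.97% of all windows, and in 8 of 22 matched genes of a list of Atf4 and amino acid response genes. The 30 bases from the start, at chr2:152344031-152344060 on the minus strand, carry it in capitals.
Trib3: agattagctcaggtTTACATCAgccgggcg

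Herpud1 and Hspa5 are shown as genes of the endoplasmic reticulum branch, each holding an endoplasmic reticulum stress element. For Hspa5 the capitals mark the endoplasmic reticulum stress element, CCAAT and CCACG with any 9 bases between them, which was in no other member, in 8 of 26 matched genes of a list of endoplasmic reticulum genes and in 0.119% of windows on either strand. For Herpud1 they mark element II, ATTGG and CCACG with any 1 base between them, which was in no other member and in 0.0365% of windows on either strand, and upstream of it the amino acid response core. These 250 bases before the start lie on the plus strand, at chr8:94386179-94386428 for Herpud1 and chr2:34771840-34772089 for Hspa5. The palindrome TGACGTCA, the cyclic AMP response element, was in no member window and in 1.79% of all windows.
Herpud1: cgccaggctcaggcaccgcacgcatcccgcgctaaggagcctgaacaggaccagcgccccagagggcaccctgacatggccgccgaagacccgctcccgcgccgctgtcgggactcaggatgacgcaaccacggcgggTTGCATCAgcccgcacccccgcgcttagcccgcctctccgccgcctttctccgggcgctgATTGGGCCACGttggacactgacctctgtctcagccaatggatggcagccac
Hspa5: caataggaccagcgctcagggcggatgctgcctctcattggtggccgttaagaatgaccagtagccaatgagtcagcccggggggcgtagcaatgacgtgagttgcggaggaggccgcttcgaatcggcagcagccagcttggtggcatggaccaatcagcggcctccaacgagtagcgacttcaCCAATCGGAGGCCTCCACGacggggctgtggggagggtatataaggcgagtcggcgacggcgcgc

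Levels below are quantile-normalised log2(intensity + 16) values, and differences are on that scale, which understates changes of dim genes. Each gene is given by its probe set of highest mean. All 10 members passed the filter on low values, a mean log2 level of 6.91, and 7436 genes were tested in all. Hspa1a had a mean of 7.04 over the 11 arrays and of 6.37 without the MLN and PLN arrays numbered 2, so it passed through its signal on those arrays. Arrays showed T cell transcripts throughout, with Cd3e at intensities of 1480.2 to 3680.3. The ratio of 3' to 5' actin signal was 1.149 and 1.113 on the MLN and PLN arrays numbered 2, against 1.078 to 1.147 on the other 9.

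The inducible heat shock genes Hspa1a and Hspa1b were bright on the MLN and PLN arrays numbered 2 and dim on the other 9. Hspa1a had 9.92 on the MLN array numbered 2 and 10.23 on the PLN array numbered 2, with 6.30 and 7.11 on MLN arrays 3 and 4 and 6.57 and 6.76 on PLN arrays 3 and 4. It had 6.85, 6.02 and 5.96 on liver arrays 2, 3 and 4, and 5.73 and 6.03 on spleen arrays 3 and 4. The pair did not overlap with the rest, and the liver array numbered 2 stayed among the dim ones. In deposited intensities Hspa1a stood at 944.7 and 1177.4 on the pair, against 40.4 to 109.6 on the other 9.

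Hspa1b showed the same split. It had 10.65 on MLN array 2 and 10.85 on PLN array 2, then 7.47 and 8.38 on MLN arrays 3 and 4, 7.77 and 8.39 on PLN arrays 3 and 4, 7.86, 7.71 and 7.18 on liver arrays 2, 3 and 4, and 7.71 and 8.22 on spleen arrays 3 and 4. The pair exceeded the mean of the other 9 arrays by 3.71 for Hspa1a and by 2.90 for Hspa1b, and these were the highest differences of this kind among the 7436 tested genes. Both ranks are descriptions, since this pattern entered the choice and Hspa1a passed the filter through its signal on the pair. The added offset shrinks the difference of Hspa1a, which was dim on the other 9. The 2 further probe sets annotated to Hspa1b differed by 3.34 and 3.60. Since the 2 genes are near-identical copies, and probe sets with the suffix _x_at or _a_at can bind several transcripts, their signals are not separate measurements of each gene.

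Trib3 and Ddit3, targets of Atf4, followed the heat shock genes in a smaller range. Trib3, a pseudokinase that restrains stress signalling, had 11.02 on MLN array 2 and 11.19 on PLN array 2, with 9.22 and 9.67 on MLN arrays 3 and 4 and 9.31 and 9.86 on PLN arrays 3 and 4. It had 9.39, 9.57 and 8.50 on liver arrays 2, 3 and 4, and 9.33 and 9.24 on spleen arrays 3 and 4. The pair again lay above all other arrays, and liver array 4 was the lowest.

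Ddit3, which encodes the pro-apoptotic factor CHOP, had 9.74 on MLN array 2 and 10.06 on PLN array 2, against 8.11 to 9.21 on the other 9. Its next highest arrays were PLN array 4 with 9.21, MLN array 4 with 8.98 and liver array 2 with 8.87. The pair differed from the mean of the other 9 by 1.76 for Trib3 and 1.36 for Ddit3, ranking 4 and 6 of 7436. These ranks are descriptions too, since the peak of both genes on the pair entered the choice. The other Trib3 probe set differed by 1.43.

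Atf4, their upstream activator, was an abundant transcript with a narrow spread. It had 12.08 and 12.13 on MLN and PLN arrays 2, and 11.34 to 11.69 on the other 9, a difference of 0.55. A second bright probe set differed by 0.39 with overlap, since PLN array 4 was its highest, and the remaining one was dim, with a mean level of 4.59. Hspa1a, Hspa1b, Trib3, Ddit3 and Atf4 were thus the 5 of 10 members with both arrays above the other 9, where 6.12% of the 7436 tested genes had this pattern; it entered the choice of the members and is not a test.

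The remaining members did not share this split. The highest array was one of the pair for 7 of 10 members, Atf3 and Herpud1 added, against 16.2% of tested genes. Atf3, a stress-induced repressor, had 8.37 and 8.72 on MLN and PLN arrays 2, within the 7.71 to 8.66 of the other 9 for the MLN array and just above it for the PLN array. Herpud1, a membrane component of endoplasmic reticulum degradation, had 9.53 and 10.15 on the pair, against 9.26 to 10.10. Xbp1, the factor activated by Ern1, had 13.10 and 13.01 on the pair, against 12.08 to 13.31.

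Dnajb9, a co-chaperone of Hspa5, had 8.98 and 8.99 on the pair, against 8.78 to 9.66. Hspa5, the main chaperone of the endoplasmic reticulum lumen, had 12.65 and 12.60, against 12.25 to 13.16. For Xbp1, Dnajb9 and Hspa5 both arrays of the pair lay inside the range of the other 9. That range includes the liver array numbered 2, with 12.28, 8.78 and 12.38 for these genes. With organ in the model, number 2 minus the mean of numbers 3 and 4 was -0.02 (SE 0.11) for Xbp1. It was -0.37 (SE 0.08) for Dnajb9 and -0.27 (SE 0.07) for Hspa5. The second Herpud1 probe set and 1 of the 3 further Xbp1 probe sets put both arrays above the other 9, by means of 0.39 and 0.43.

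**Figure D1:**
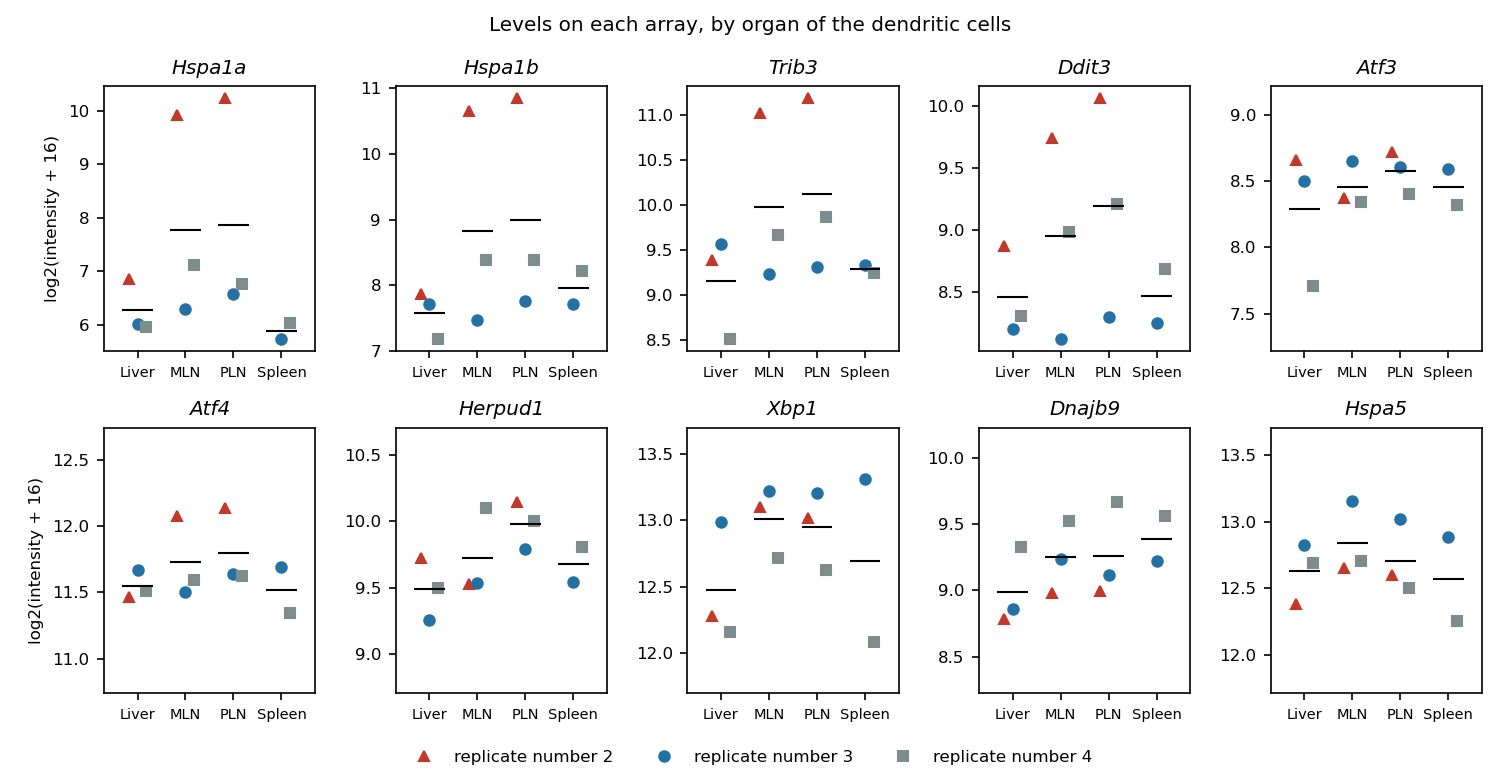
Quantile-normalised log2(intensity + 16) of the 10 members on each of the 11 arrays, by organ of the dendritic cells, with a symbol for each replicate number and a bar at the organ's mean; each panel has its own vertical range of at least 2 log2 units. The MLN and PLN arrays numbered 2 stand above all others for Hspa1a, Hspa1b, Trib3, Ddit3 and Atf4, with Hspa1a at 9.92 and 10.23 against at most 7.11.

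Further genes of each branch were read on the same 2 arrays. In a list of 30 Atf4 and amino acid response genes, 27 were tested; 25 were higher on the pair than on the other 9, with a median difference of 0.44, and 13 had both arrays above all others. Over all tested genes the median was -0.01, and 6.12% had both arrays above all others. The genes of the lists named here and in the next paragraph were chosen with their values in view. Examples were Nupr1, a stress-induced chromatin factor, with 1.31, Pck2, a mitochondrial enzyme of phosphoenolpyruvate synthesis, with 1.03, the asparagine synthetase gene Asns with 0.75, and Mthfd2, of mitochondrial folate metabolism, with 0.74. Transfer RNA synthetase genes were among the 13, with Cars at 0.59, Gars at 0.46, Aars at 0.41 and Nars at 0.37. Chac1 and Sesn2, also Atf4 targets, differed by -0.02 and 0.01.

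Endoplasmic reticulum chaperone and degradation genes were mostly lower on the pair, and on the liver array numbered 2 as well. Of 32 listed and tested, 24 were lower on the pair, with a median of -0.16; 0 had both arrays above the other 9 and 6 had both below, where 6.33% of all tested genes were below. The list's median deviation from each gene's mean over the arrays was -0.16 on the liver array numbered 2, -0.095 and -0.144 on the MLN and PLN arrays numbered 2, and -0.012 to 0.128 on the arrays numbered 3 and 4. Of 20 tested cytosolic and mitochondrial heat shock genes, out of 25 listed, 16 were higher, with a median of 0.13. In this list 2 had both arrays above the rest, not far from the 6.12% of all tested genes for so few. These 2 were Dnajb1, a partner of the inducible chaperones, with 0.34, and Hspa4l with 0.30. The constitutive chaperone gene Hspa8 differed by 0.05 and Hsp90aa1 by 0.01. Of 14 tested immediate early genes, out of 16 listed, 1 had both arrays above and 3 had both below. Among all tested genes these shares were 6.12% and 6.33%. The 1 above was the AP-1 gene Junb, with 0.56.

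**Figure D2:**
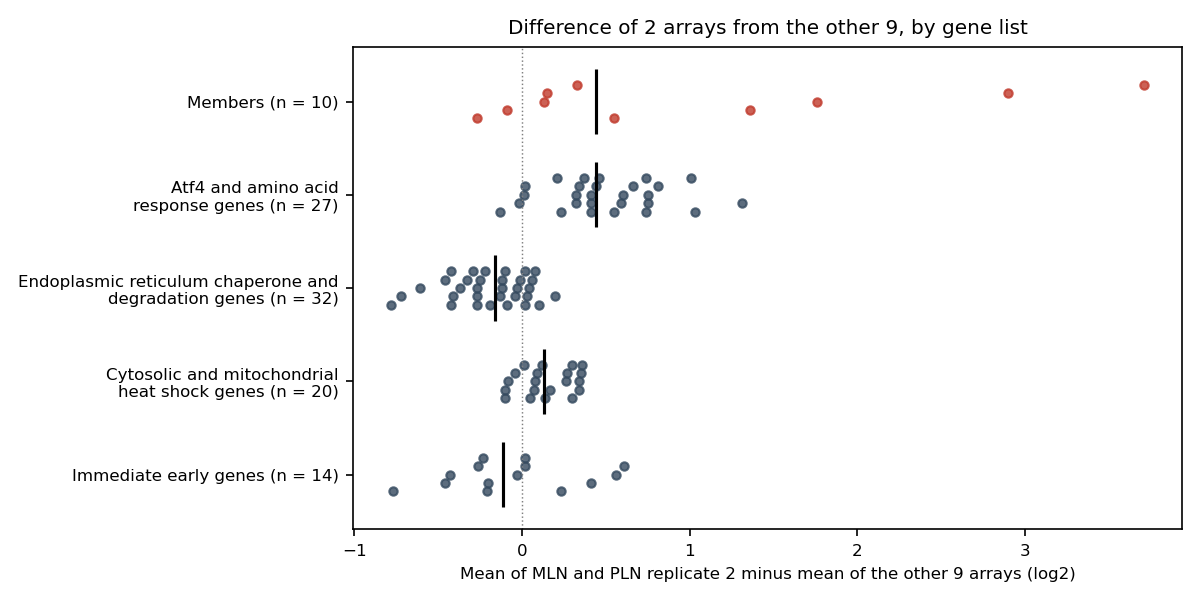
Each point is a tested gene, placed by the mean of the MLN and PLN arrays numbered 2 minus the mean of the other 9 arrays on the log2 scale; rows are the 10 members and 4 pathway lists, and the vertical bar is the median. The median is 0.44 for the members and for the Atf4 and amino acid response list, and -0.16 for the endoplasmic reticulum list.

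Summed marker signals on the pair lay within those of the other arrays. The summed intensity of 9 T cell markers was 23885 and 25084 on the pair, against 23653 to 33324 on the other 9, and all 9 markers were lower on the pair, with a median difference of -0.16. For 11 dendritic cell markers the sum was 6848 and 6546, against 5182 to 10417, for 8 B and plasma cell markers 14160 and 13836, against 10177 to 14267, and for 8 macrophage and monocyte markers 2643 and 2561, against 2317 to 4063. Gene by gene, the pair was lower for 7 of 9 tested dendritic cell markers (median difference -0.19) and for 4 of 5 tested macrophage and monocyte markers (-0.31). Of 7 tested B and plasma cell markers 4 were higher and 3 lower (median 0.01), from -0.68 for Jchain to 0.58 for Cd79b. Ighm alone had intensities of 11427 and 11480.6 on the pair, most of that list's sum. The part of all these markers in the pattern of the pair was not tested. No marker was at 0; Marco, a macrophage receptor, was below an intensity of 16 on all arrays. The 4 hepatocyte markers summed to 54 to 133 on the 11 arrays.

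Between the 3 lymphoid organs no member passed the test. Hspa1a averaged 7.78 ± 1.90 in MLN cultures and 7.85 ± 2.06 in PLN cultures (SD, n = 3 each), against 5.88 ± 0.21 in spleen cultures (SD, n = 2). The MLN minus spleen difference was 1.90 (SE 1.14) and the PLN minus spleen difference 1.98 (SE 1.14). Spleen has no array numbered 2, and without the MLN and PLN arrays of that number the MLN and PLN means of Hspa1a were 6.71 and 6.66. Trib3 averaged 9.97 ± 0.94 in MLN, 10.12 ± 0.96 in PLN and 9.28 ± 0.06 in spleen cultures, and 9.45 and 9.59 in MLN and PLN without the arrays numbered 2.

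Between MLN and PLN cultures the widest member difference was -0.26 (SE 0.19) for Herpud1, with 9.72 ± 0.33 in MLN and 9.98 ± 0.18 in PLN cultures. In limma 0 of 10 members passed in MLN minus PLN, MLN minus spleen or PLN minus spleen, with 0 at an unadjusted p under 0.05. The background was 0.0134%, 0% and 0% of the 7436 genes, with 96, 262 and 115 at an unadjusted p under 0.05, so these comparisons called almost no gene of any kind. The 1 gene called in MLN minus PLN was Lmna, a nuclear lamin gene, chosen after its value was seen, at -1.98 (SE 0.22, adjusted p = 0.0192). With the replicate number as a block, 0 members passed again, with 0, 2 and 2 at an unadjusted p under 0.05, and the background shares were 0.148%, 0.215% and 0%. The smallest adjusted p of limma there was 0.135 for Hspa5 in MLN minus spleen, a difference of 0.36 (SE 0.09).

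All 10 members were lower in liver cultures than in the mean of the other 3 organs, where 46.9% of tested genes were lower; this pattern entered the choice and is given as a description. Hspa1b averaged 7.58 ± 0.36 in liver cultures, against 8.83 ± 1.64 in MLN, 9.0 ± 1.63 in PLN and 7.97 ± 0.36 in spleen cultures. Xbp1 averaged 12.47 ± 0.45 in liver, against 13.01 ± 0.26 in MLN, 12.95 ± 0.30 in PLN and 12.70 ± 0.87 in spleen cultures. Dnajb9 averaged 8.99 ± 0.29 in liver, against 9.25 ± 0.27 in MLN, 9.26 ± 0.36 in PLN and 9.39 ± 0.24 in spleen cultures. Groups of 3 arrays (2 for spleen) overlapped in all of these.

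The MLN and PLN arrays numbered 2 contributed unequally to the liver differences. With all arrays, liver differed by -0.89 for Hspa1a, -1.02 for Hspa1b, -0.64 for Trib3, -0.41 for Ddit3 and -0.13 for Atf4. Without those 2 arrays the differences were -0.14, -0.41, -0.29, -0.13 and -0.02. That comparison keeps the liver array numbered 2 without a partner; with the replicate number as a block they were -1.17, -1.24, -0.77, -0.53 and -0.17 with all arrays. Without the 2 arrays and with the block, an alternative chosen after seeing the data, they were -0.43, -0.54, -0.40, -0.34 and 0.02. For Herpud1, Xbp1 and Dnajb9 they were -0.30, -0.41 and -0.31 with all arrays and -0.31, -0.38 and -0.40 without the 2, or -0.42, -0.29 and -0.30 with the block as well. Atf3 differed by -0.20 and -0.19 and Hspa5 by -0.07 and -0.12. Single arrays turned these last 2: Atf3 differed by 0.09 without liver array 4, and Hspa5 by 0.05 without liver array 2 and by 0.03 without spleen array 3.

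Within replicate numbers, liver was the lowest organ for Dnajb9 under all 3 numbers, with 8.78, 8.86 and 9.32 in liver against means of 8.99, 9.19 and 9.58 in the other organs. For Xbp1 the liver arrays lay below the mean of the others by 0.78, 0.26 and 0.32 under numbers 2, 3 and 4, and for Herpud1 by 0.12, 0.37 and 0.47. Under numbers 2, 3 and 4 liver was lower by 3.22, 0.18 and 0.67 for Hspa1a and by 1.03, 0.02 and 0.65 for Ddit3. For Hspa1b it was lower by 2.89 and 1.15 under numbers 2 and 4 and higher by 0.06 under number 3. For Trib3 the liver array was lower by 1.72 and 1.09 under numbers 2 and 4 and higher by 0.28 under number 3. Liver was also higher by 0.11 for Atf3 under number 2, by 0.06 for Atf4 under number 3 and by 0.20 for Hspa5 under number 4. Under their other numbers these genes were lower in liver. The second Herpud1 probe set showed a liver difference of 0.00, and the other 3 Xbp1 probe sets differed by -0.58, -0.45 and -0.26. Over all genes limma called 0% in the liver contrast (317 at an unadjusted p under 0.05), and 2.14% with the block.

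**Figure D3:**
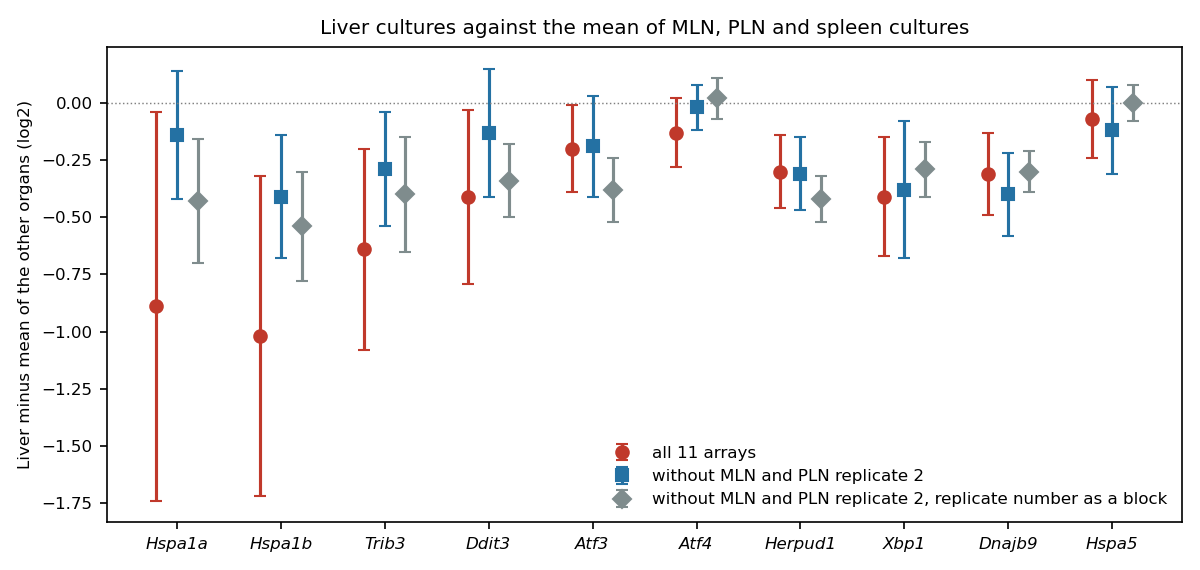
Liver cultures minus the mean of the MLN, PLN and spleen cultures for each member on the log2 scale, with all 11 arrays, without the MLN and PLN arrays numbered 2, and without them with the replicate number as a block; bars are standard errors from the fit. The difference of Hspa1a is -0.89, -0.14 and -0.43 in these 3 settings, and that of Xbp1 is -0.41, -0.38 and -0.29.

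Arrays of the same organ but different replicate numbers differed widely, which the labels do not explain. Between numbers 4 and 3, held by all 4 organs, 43.3% of tested genes passed in limma with organ in the model, 22.3% higher and 21% lower in number 4, and the members' counts are read against that. Of the 10 members, 3 rose and 3 fell, which is not far from that background for so few genes. These 3 and 3 were also above or below in all 4 organs, as were 28% and 26.8% of all tested genes. Members of the endoplasmic reticulum branch went both ways.

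Xbp1 fell by 0.79 (SE 0.11, adjusted p = 0.000123). It had 12.16, 12.72, 12.62 and 12.08 in liver, MLN, PLN and spleen arrays numbered 4, against 12.99, 13.22, 13.20 and 13.31 in those numbered 3. Hspa5 fell by 0.44 (SE 0.07, adjusted p = 0.000414), with 12.69, 12.70, 12.50 and 12.25 in arrays numbered 4, against 12.83, 13.16, 13.02 and 12.89 in those numbered 3. Xbp1 and Hspa5 were lower in number 4 in all 4 organs, as were 26.8% of all tested genes. The second Hspa5 probe set differed by -0.39, and the other Xbp1 probe sets by -0.62, -0.52 and -0.29.

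Dnajb9 rose by 0.41 (SE 0.08, adjusted p = 0.00116), opposite to Xbp1 and Hspa5. It had 9.32, 9.52, 9.66 and 9.56 in liver, MLN, PLN and spleen arrays numbered 4, against 8.86, 9.24, 9.12 and 9.22 in those numbered 3. Dnajb9 was thus higher in all 4 organs, as were 28% of all tested genes. Ddit3 rose by 0.58 (SE 0.15, adjusted p = 0.00825), by 0.87 in MLN and 0.91 in PLN cultures against 0.43 in spleen and 0.11 in liver cultures. Whether organs differ in this was not tested.

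Atf3 fell by 0.40 (SE 0.13, adjusted p = 0.0305), and its liver arrays differed the most, with 7.71 in number 4 against 8.50 in number 3. Without liver array 4 the difference was -0.24 (adjusted p = 0.117). Herpud1 rose by 0.32 (SE 0.11, adjusted p = 0.0360), passed in 9 of 18 other settings, and its second probe set differed by -0.12. The call was lost without MLN array 4, at 0.19 (adjusted p = 0.156).

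Hspa1a, Hspa1b, Trib3 and Atf4 did not pass, with differences of 0.31 (SE 0.38), 0.37 (SE 0.37), -0.04 (SE 0.26) and -0.11 (SE 0.11). Trib3 differed by 0.44 in MLN and 0.55 in PLN cultures and by -1.06 in liver cultures. Hspa1b differed by 0.91, 0.62 and 0.51 in MLN, PLN and spleen cultures and by -0.54 in liver cultures; without liver array 3 its difference was 0.87 and passed (adjusted p = 0.0234).

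**Figure D4:**
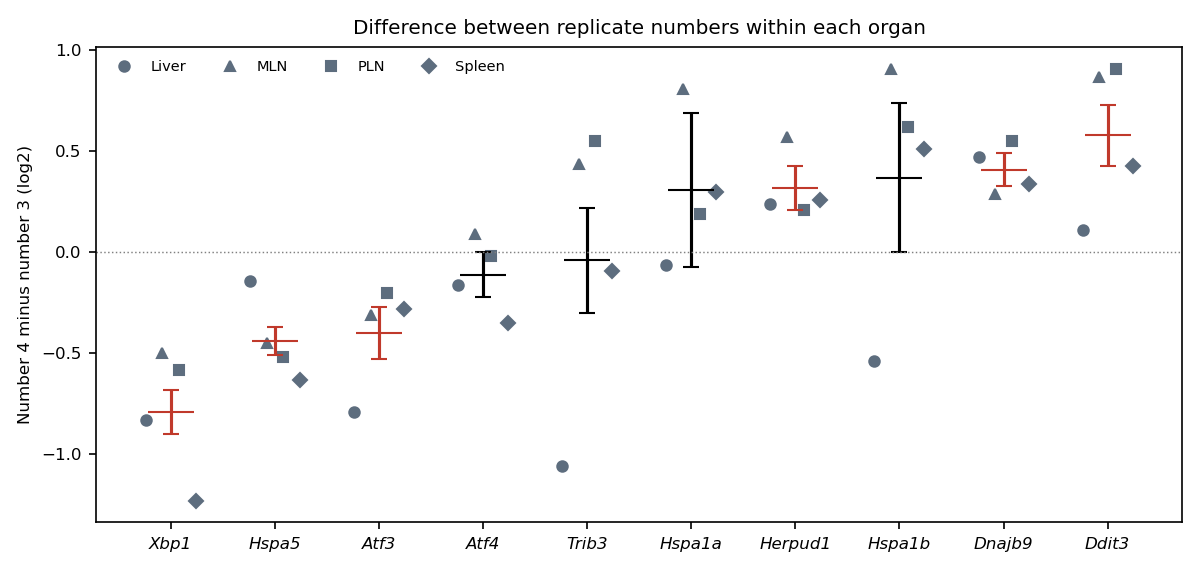
Difference between the arrays numbered 4 and 3 of the same organ for each member on the log2 scale; grey symbols are the 4 organs, and the bar with whiskers is the fitted difference ± SE, in red where limma's adjusted p is below 0.05. Xbp1, Hspa5 and Atf3 lie below 0, and Herpud1, Dnajb9 and Ddit3 above it, in all 4 organs.

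Of 20 tested cytosolic and mitochondrial heat shock genes, 1 rose and 14 fell in number 4, with a median of -0.41 against 0.01 over all tested genes. Among all tested genes 22.3% rose and 21% fell. The one that rose was Dnajb4, by 0.92, and Dnajb1, Hspa4l, Dnajb6, Hspb1 and Bag3, with -0.10 to 0.14, did not pass. The mitochondrial chaperone gene Hspd1 fell by 0.55 (SE 0.05), and Stip1, Ahsa1 and Hspa4, co-factors of cytosolic chaperones, fell by 0.74 (SE 0.08), 0.66 (SE 0.07) and 0.46 (SE 0.06). Of 32 endoplasmic reticulum genes, 5 rose and 4 fell, with a median of 0.01. Together that is a smaller share than the 43.3% of all tested genes that passed. The lectin gene Os9 rose by 0.73 (SE 0.07) and P4hb, a disulfide isomerase, by 0.32 (SE 0.06), while Pdia6, of the same enzyme family, fell by 0.54 (SE 0.06) and Manf by 0.46 (SE 0.07).

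Of 27 Atf4 and amino acid response genes, 6 rose and 9 fell, with a median of -0.06, against 22.3% and 21% of all tested genes. Ero1a, an oxidase of the endoplasmic reticulum, rose by 0.85 (SE 0.09), the lipoprotein receptor gene Vldlr by 1.75 (SE 0.20) and the sensor kinase gene Eif2ak3 by 0.69 (SE 0.09), while Psat1, of serine synthesis, fell by 0.67 (SE 0.07). Of 14 immediate early genes 5 rose and 3 fell, with a median of 0.00, against the same shares of all tested genes. Ier3, Jund and Jun rose by 0.77 (SE 0.08), 0.67 (SE 0.08) and 0.89 (SE 0.11), and Nr4a1, an early gene of receptor stimulation, fell by 0.75 (SE 0.12).

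Cell type markers moved with the same contrast. The summed intensity of 11 dendritic cell markers was 5182 to 6706 on arrays numbered 4, against 9124 to 10417 on those numbered 3. Of the 9 tested genes of that list 1 rose and 7 fell, with a median of -0.59, against 22.3% and 21% of all tested genes. The gene that rose was Itgax, by 1.85 (SE 0.13). Ccl22, named for its large part of the sum, had intensities of 505.5 to 1580 on arrays numbered 4. On those numbered 3 it had 3027.3 to 3572.3. The 9 T cell markers summed to 25808 to 33324, against 23653 to 24406, the 8 macrophage and monocyte markers to 2317 to 3345, against 3178 to 4063, and the 8 B and plasma cell markers to 12551 to 13173, against 10177 to 14267. Gene by gene, 4 of 9 tested T cell markers rose and 2 fell. Of 5 tested macrophage and monocyte markers 0 rose and 2 fell, and of 7 tested B and plasma cell markers 3 rose and 1 fell. The part of these markers in the differences of Xbp1, Hspa5 and the other members was not tested.

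How the members varied together over the 11 arrays is given as a description, since the arrays share replicate numbers and 2 of them carry much of the spread. Pearson's r was 0.97 between Hspa1a and Hspa1b, 0.93 between Hspa1a and Trib3 and 0.89 between Trib3 and Ddit3. Without the MLN and PLN arrays numbered 2 these were 0.58, 0.54 and 0.56, and r between Hspa1a and Atf4 was -0.02, against 0.87 with them. Other pairs stayed higher: Hspa1a and Ddit3 had 0.91 with all arrays and 0.72 without the 2. Hspa1b had 0.96 and 0.80 with Trib3, and 0.93 and 0.82 with Ddit3. Xbp1 and Hspa5 had 0.78 with all arrays and 0.86 without the 2. Dnajb9 and Hspa5 had -0.17. The mean of each replicate number was also taken out of the 11 arrays, which keeps the MLN and PLN arrays numbered 2. Hspa1a then had 0.93 with Hspa1b, 0.88 with Trib3 and 0.89 with Atf4, and Trib3 had 0.97 with Ddit3. In that setting Xbp1 ran with these genes as well. It then had 0.86, 0.80, 0.83, 0.85 and 0.83 with Hspa1a, Hspa1b, Trib3, Ddit3 and Atf4. Without that step these were 0.25, 0.23, 0.39, -0.02 and 0.56. Without that step and without the 2 arrays they were -0.12, -0.17, 0.31, -0.5 and 0.74. With the number means taken out of the 11 arrays, Xbp1 and Hspa5 had 0.59.

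The tested genes most like Trib3 over the 11 arrays, members left out, were Cars (r = 0.953), Pcca (0.951), Fosl2 (0.933), Rabggta (0.929) and Gna13 (0.922). For Hspa1a they were Gna13 (0.965), Fosl2 (0.956), Mt1 (0.942), Aars (0.942) and Cars (0.937). Without the 2 arrays these values were 0.553 to 0.810 for Trib3 and 0.407 to 0.822 for Hspa1a. Those most like Hspa5 were Emc4 (0.966), Ppp5c (0.965), Timm17a (0.964), Atp2a2 (0.960) and Cinp (0.955), with 0.956 to 0.973 without the 2 arrays.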

How the data were processed

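The deposited values are linear intensities, 1 for each of 22690 probe sets on each array. The authors had scaled them, since the mean after trimming 2% from both tails was 500.2 on all 11 arrays; their software is not stated in the labels. The 64 controls were dropped, and 691 probe sets with several symbols and 1555 without one stayed unnamed. Values became log2(intensity + 16) and were quantile normalized, since array medians spanned 0.22. Each gene took its probe set of highest mean, and the upper 60% (7436 genes) entered limma 3.58.1 under R 4.3.3 (lmFit, eBayes with a variance trend, Benjamini-Hochberg adjustment, threshold 0.05). Organ contrasts came from 1 fit of 4 organ means (7 residual degrees of freedom), and number 4 minus number 3 from organ plus replicate number (5). The code was tested on simulated data.

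The replicate numbers, taken from the labels, pair the arrays: deviations from organ means correlated at 0.412 to 0.731 in all 15 pairs of equal number, and 11 of 11 arrays correlated best with one of their own number. Members, lists and tests were chosen with earlier results of these data known. All members are named, then the 4 genes of each pathway list with the smallest p between numbers 4 and 3, and 5 genes most correlated with Trib3, Hspa1a and Hspa5; further names are marked in the text. The number of arrays limits the precision. Other normalizations, offsets, filters, probe set choices, blocks and left-out arrays were tried.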

Additional observations from a re-analysis of the deposited data

How the results depend on the processing

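The 10 members stayed lower in liver under all other normalizations and offsets, with all probe sets averaged and without the MLN and PLN arrays numbered 2, and 9 to 10 did so with 1 array left out; with the replicate block and without that pair, Atf4 and Hspa5 differed by 0.02 and 0.00. The count with their highest array among that pair was 7, but 6 with median centring and 5 to 7 with 1 array left out. No member passed in an organ pair in any setting tried, and the replicate block changed no member's call there. The genes called numbered 1 in MLN minus PLN, 0 in MLN minus spleen, PLN minus spleen and the liver contrast, and 3222 between numbers 4 and 3. With the replicate block they were 11, 16, 0 and 159 for the organ contrasts, and 5, 10, 0 and 5 with the block and without the pair, an alternative chosen after seeing the data. MLN minus PLN called 0 without the pair or with each probe set tested on its own, and the liver contrast 1 without a filter or with each probe set on its own. With 1 array left out the counts were 0 to 1 in MLN minus PLN and MLN minus spleen, 0 in PLN minus spleen, 0 to 2 in the liver contrast and 2618 to 3258 between numbers. The cause was not tested. Between numbers 4 and 3, Xbp1, Hspa5 and Dnajb9 passed in all 18 other settings and Ddit3 in 17, failing with organ left out of the model (adjusted p = 0.0601). Atf3 passed in 12 and Herpud1 in 9; without a filter both missed (adjusted p = 0.0678 and 0.0682), and with 1 array left out Atf3 ranged from -0.48 to -0.24 and Herpud1 from 0.19 to 0.38.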
